A study of Mus musculus with 9 samples.

Results

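Genes for the pore-forming and auxiliary subunits of voltage-gated and related ion channels were followed in mouse spinal cord. They were chosen by symbol alone: every probe set with a single gene symbol starting with Kcn, Scn, Cacn, Hcn or Clcn was taken, which gave 89 probe sets for 69 genes, out of 8251 genes with a single symbol on the array. Each gene was represented by 1 probe set. Potassium channel genes formed most of the group, with 16 voltage-gated pore subunits, 11 inward rectifiers, 5 channels with 2 pore domains, 4 grouped as calcium- or sodium-activated channels and 6 auxiliary subunits. Roles were assigned by symbol prefix alone, also for Kcnu1, which was counted with the calcium- or sodium-activated channels. There were also 6 sodium channel pore subunits, 7 calcium channel pore subunits and 5 calcium channel auxiliary subunits, 2 pacemaker channels and 6 chloride channels or exchangers. The remaining match, Scnm1, carries a sodium channel name but encodes a splicing factor. Kcnj10, Kcnk6, Scn2b, Scn4b and Cacng5 were not analysed here.

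The 9 one-colour arrays each measured total RNA of 1 spinal cord sample from B10.PL mice, in 3 groups of 3. Naive mice (replicates 2, 3 and 4) were the controls, and the labels name no placebo for them. Both other groups had experimental autoimmune encephalomyelitis (EAE), a T cell-driven attack on myelin used to model multiple sclerosis. One of them received placebo (replicates 1, 5 and 10) and the other 200 ng of calcitriol (replicates 6, 7 and 8), the active vitamin D hormone, and their cords were taken 6 h afterwards. Disease and placebo treatment therefore cannot be told apart in the comparison with naive cord. Age, sex, how EAE was induced and whether arrays of a group stem from separate animals are not known here, so p-values measure only the spread between these samples, which may be technical. For calcitriol replicate 6 the title gives a D2 hormone where the description gives D3.

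Voltage-gated sodium channels carry the rising phase of the action potential and voltage-gated potassium channels end it. In myelinated axons, sodium channels cluster at nodes of Ranvier and Kv1 potassium channels, built of Kcna subunits with a cytoplasmic beta subunit (Kcnab genes), lie under the neighbouring myelin, so both are studied in demyelinating disease. Voltage-gated calcium channels release transmitter at synapses, inward rectifiers and 2-pore channels set the resting potential, pacemaker (HCN) channels shape rhythmic firing, and the potassium channels Kv1.3 (Kcna3) and KCa3.1 (Kcnn4) are used by activated lymphocytes and microglia.

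Signals differed more between arrays within the naive group than within the other groups. Log2 signals correlated across tested probe sets at 0.765 to 0.878 between naive arrays, 0.921 to 0.936 between placebo arrays and 0.899 to 0.938 between calcitriol arrays. The median SD of the ion channel genes was 0.34 log2 on naive, 0.21 on placebo and 0.25 on calcitriol arrays, close to the medians over all tested probe sets (0.36, 0.23 and 0.25). The beta-actin control ran from -0.25 to 0.12 log2 (5′ minus 3′ probe set) on naive arrays, from -1.11 to -0.42 on placebo arrays and from -0.83 to -0.52 on calcitriol arrays. This measure of RNA length differed between naive and EAE arrays, and its part in the differences from naive cord below was not tested. Of 10 neuron, 4 astrocyte and 6 oligodendrocyte markers measured, none lay at the floor on all 3 naive arrays. The same held for 6 skeletal muscle and 6 T cell markers, so this measure does not identify the tissue. With 3 arrays in each group, precision is limited by their number.

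Each array was brought to the same mean of 192.8 signal units, and low values were raised to a floor of 19.3 units before log2. Of the 69 genes, 55 were above this floor on all 9 arrays. Kcnj15, an inward rectifier, and Scn9a, a sodium channel of sensory neurons, were above it on fewer than 3 arrays and were not tested. The other 67 passed the filter. A signal depends on the probes as well as on the transcript, so signals are compared between arrays for 1 gene at a time and not between genes.

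A set of 6 genes had an exact 0 on 1 array, which can be a failed estimate. Kcnab2 and Scn8a were listed at 0 on naive replicate 2 and Kcnj6 on naive replicate 4, although their other arrays ran from 238 to 448, from 140 to 219 and from 240 to 368 units. Kcnh2 was listed at 0 on placebo replicate 10, against 402 to 668 units elsewhere, Kcnj11 on calcitriol replicate 6 and Kcnj8 on placebo replicate 5. For these genes the differences that the 0 enters are given with the 0 at the floor and with it left out.

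**Figure D1:**
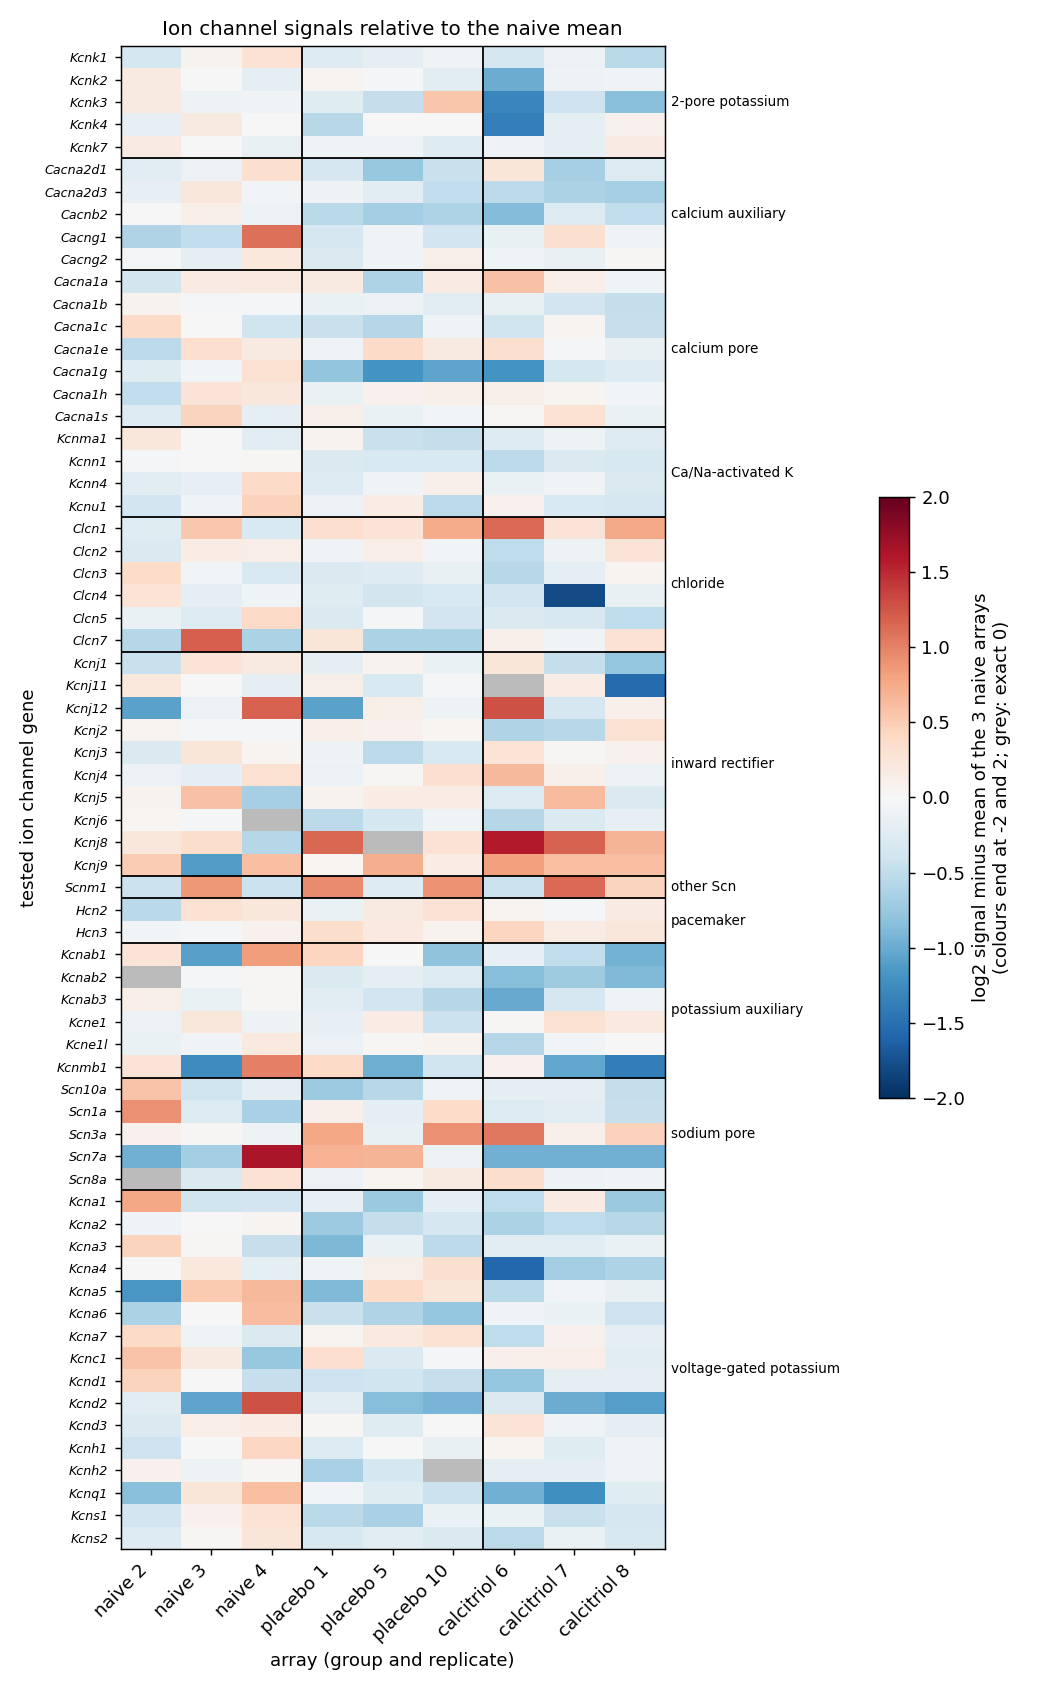
Log2 signal of the 67 tested ion channel genes (vertical axis, grouped by role) on each of the 9 arrays (horizontal axis), minus the mean of the gene's naive arrays, with exact zeros in grey and left out of that mean. Most cells are pale, and strong colours are scattered over single arrays rather than over whole groups, with Kcna4, Kcnab2 and Kcna2 among the rows that are lower on a whole group of arrays.

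None of the 67 tested genes passed the test in placebo-treated EAE against naive cord, in calcitriol-treated against placebo-treated EAE, or in calcitriol-treated EAE against naive cord. The test was limma with a Benjamini-Hochberg adjusted p under 0.05 over all 12177 tested probe sets, of which 0.936%, 0% and 2.00% passed in the 3 comparisons. At an unadjusted limma p under 0.05 there were 3 genes (4.48%) in placebo against naive, 2 (2.99%) in calcitriol against placebo and 8 (11.9%) in calcitriol against naive, where all probe sets gave 9.33%, 2.58% and 11.9%. In the last comparison the share was that of the whole array. In the tissue as a whole, fewer cells of a type and less RNA per cell cannot be told apart.

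The size of change that these arrays could miss was limited for many of the genes. The median 95% interval of a gene's difference reached 0.66 log2 to either side. A 2-fold change in either direction (1 log2) lay outside the interval for 38 of 67 genes in placebo against naive, for 40 in calcitriol against placebo and for 37 in calcitriol against naive, which is 56.7%, 59.7% and 55.2% against 55.5%, 61.0% and 53.8% of all tested probe sets. Kcnn4, the KCa3.1 channel of activated lymphocytes and microglia, was one of them. Its signals were 468, 491 and 719 units on naive, 460, 523 and 589 on placebo and 499, 522 and 451 on calcitriol arrays. The groups overlapped, and the 95% interval was -0.48 to 0.34 log2 for placebo minus naive and -0.57 to 0.24 for calcitriol minus naive. Kcna3, the Kv1.3 channel of the same cells, had 137, 103 and 73.2 units on naive, 54.2, 92.0 and 70.0 on placebo and 87.7, 86.0 and 91.8 on calcitriol arrays. It overlapped as well, at -0.52 ± 0.29 log2 (SE) for placebo minus naive (limma adjusted p = 0.678) and -0.19 ± 0.29 for calcitriol minus naive (limma adjusted p = 0.861). On the same arrays, the summed signal of 9 macrophage and microglia markers was higher in both EAE groups. It was 2826 to 3662 (placebo) and 3310 to 4999 units (calcitriol), against 1408 to 1558 on naive arrays. A sum over 6 T cell markers showed no such rise. No calcitriol array exceeded 2072 units there and no placebo array 2468, while every naive array had at least 2399. That sum mainly follows Thy1 (666 to 1448 units over the arrays) and Cd4 (771 to 995). Cd3e, Cd3d, Cd3g and Cd8a had at most 144 units on any array and hardly enter it. Whether the EAE samples held more T cells was not tested. Which cells gave the channel signals was not tested.

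Most differences from naive cord lay below 0. In placebo against naive 47 of 67 genes (70.1%) were lower, against 52.3% of all tested probe sets, with a median of -0.14 log2 against -0.02 over all probe sets. In calcitriol against naive 45 of 67 (67.2%) were lower, against 52.0%, with a median of -0.21 against -0.02. These comparisons share the naive arrays. The median over the genes on single arrays, relative to the naive mean, was -0.12, 0.01 and 0.06 log2 on naive replicates 2, 3 and 4, between -0.13 and -0.10 on placebo and between -0.17 and -0.13 on calcitriol arrays. Naive replicate 2 thus lay among the EAE arrays. As deposited, without scaling, 34 of 67 genes were lower in placebo than in naive cord (50.7%, median -0.0103 log2) and 40 of 67 in calcitriol-treated EAE (59.7%, median -0.0911), while the medians of all tested probe sets moved to 0.109 and 0.0944 log2 and 36.3% and 38.9% of them were lower. Calcitriol against placebo was balanced, with 34 of 67 genes lower (50.7%, against 50.2% of all probe sets) and a median of -0.02 log2. Of 10 neuron markers measured, 8 were lower in placebo than in naive cord and 0 passed the test, and their summed signal was 6811 to 14032 units on naive arrays, against 5059 to 6909 (placebo) and 4626 to 5237 (calcitriol). The highest of these, 14032, was naive replicate 2 alone, and without it the naive arrays were at 6811 and 7856, the former below the highest placebo array. Exact zeros enter these naive sums, 2 on naive replicate 2 (Nefl and Stmn2) and 1 on naive replicate 4 (Gad1). Gad1 had 309 and 137 units on the other naive arrays, so the overlap of naive replicate 4 with placebo may depend on that 0. The signal that the 0 stands for is not known. Nefl and Stmn2 were also the 2 markers not lower in placebo, with their 0 at the floor. On the other naive arrays Nefl had 745 and 784 units, above its placebo arrays at 364 to 582. Stmn2 had 204 and 216 units there, below its placebo arrays at 301 to 378, so it was higher in placebo without its 0 too. The part of the neuron content of the samples in the ion channel values was not tested.

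**Figure D2:**
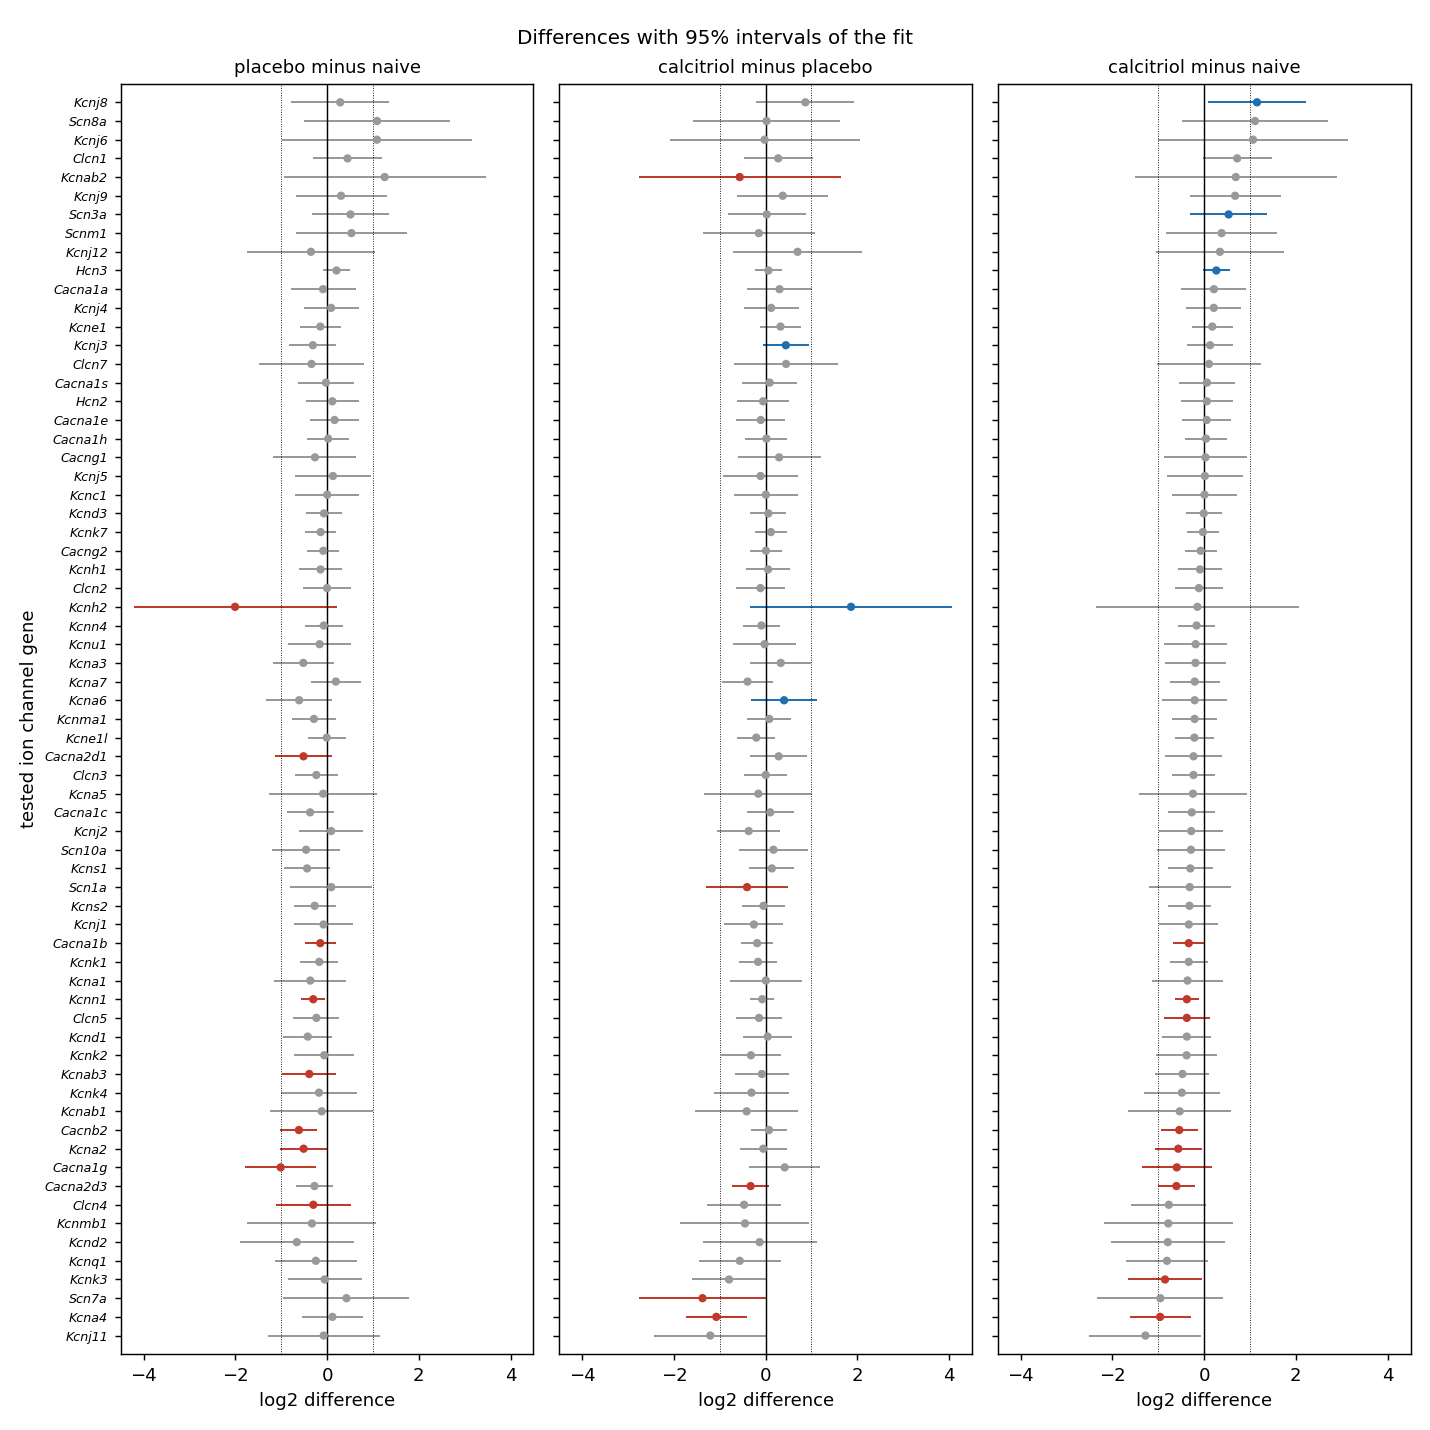
Log2 difference (horizontal axis) with its 95% interval for each of the 67 tested ion channel genes (vertical axis, ordered by calcitriol minus naive), with genes in red or blue where all arrays of the first group lay below or above all arrays of the second, and dotted lines at -1 and 1. No gene passed the adjusted threshold, the red points outnumber the blue in both comparisons with naive cord, and the 4 widest intervals belong to Kcnh2, Kcnab2, Kcnj6 and Scn8a, which have an exact 0 on 1 array.

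Groups were also compared by whether their arrays overlapped. All placebo arrays lay below all naive arrays for 9 genes (13.4%, against 7.13% of all tested probe sets) and above them for 0 (against 7.39%), and all calcitriol arrays lay below naive for 9 (13.4%, against 7.69%) and above for 3 (4.48%, against 8.45%), Kcnj8, Hcn3 and Scn3a. A group of 5 genes had all 6 EAE arrays below all 3 naive arrays: Cacnb2, Cacna1b, Cacna1g, Kcnn1 and Kcna2. They were 7.46% of the tested ion channel genes, against 3.76% of all tested probe sets, and 0 genes lay above in the same way, against 4.43%. Cacnb2 encodes a beta subunit that brings calcium channel pores to the membrane. Its signals were 252, 271 and 232 units on naive, 173, 156 and 163 on placebo and 138, 208 and 178 on calcitriol arrays. The lowest naive array was above the highest EAE array. The difference was -0.62 ± 0.18 log2 (SE, n = 3 per group) for placebo minus naive, or 1.53-fold lower (limma adjusted p = 0.229), and -0.54 ± 0.18 log2 for calcitriol minus naive (limma adjusted p = 0.223).

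Kcnn1 encodes the SK1 channel, which is opened by intracellular calcium and slows repeated firing. It had 470, 477 and 485 units on naive, 389, 386 and 385 on placebo and 332, 390 and 383 on calcitriol arrays. Its arrays agreed closely within the naive and placebo groups (SD 0.023 and 0.0078 log2) and less so within the calcitriol group (SD 0.127). The difference was -0.30 ± 0.12 log2 (SE) for placebo (1.23-fold lower, limma adjusted p = 0.425) and -0.38 ± 0.12 log2 for calcitriol (1.30-fold lower, limma adjusted p = 0.191). Kcna2 encodes Kv1.2, a main potassium channel of the axon under the myelin beside the node. Its signals were 80.6, 85.2 and 88.2 units on naive, 51.3, 60.8 and 66.8 on placebo and 54.7, 59.4 and 57.7 on calcitriol arrays, with a gap between naive and EAE arrays. The difference was -0.51 ± 0.23 log2 (SE) for placebo (1.43-fold lower, limma adjusted p = 0.538) and -0.56 ± 0.23 for calcitriol (1.48-fold lower, limma adjusted p = 0.36), and placebo and calcitriol arrays overlapped (-0.05 ± 0.23 log2).

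Cacna1b, the pore of the N-type calcium channel of nerve terminals, had 209, 195 and 194 units on naive, 181, 184 and 173 on placebo and 180, 152 and 143 on calcitriol arrays. The gaps were small: -0.15 ± 0.15 log2 (SE) for placebo (limma adjusted p = 0.829) and -0.34 ± 0.15 for calcitriol (limma adjusted p = 0.43). Cacna1g, the pore of a low-voltage-activated T-type channel, was dim, at 37.2, 42.1 and 54.2 units on naive arrays and between below the floor and 36.7 units on EAE arrays, with placebo replicate 5 and calcitriol replicate 6 at the floor. Its difference, -1.01 ± 0.34 log2 for placebo (SE, limma adjusted p = 0.336) and -0.60 ± 0.34 for calcitriol (limma adjusted p = 0.555), therefore rests in part on the floor.

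**Figure D3:**
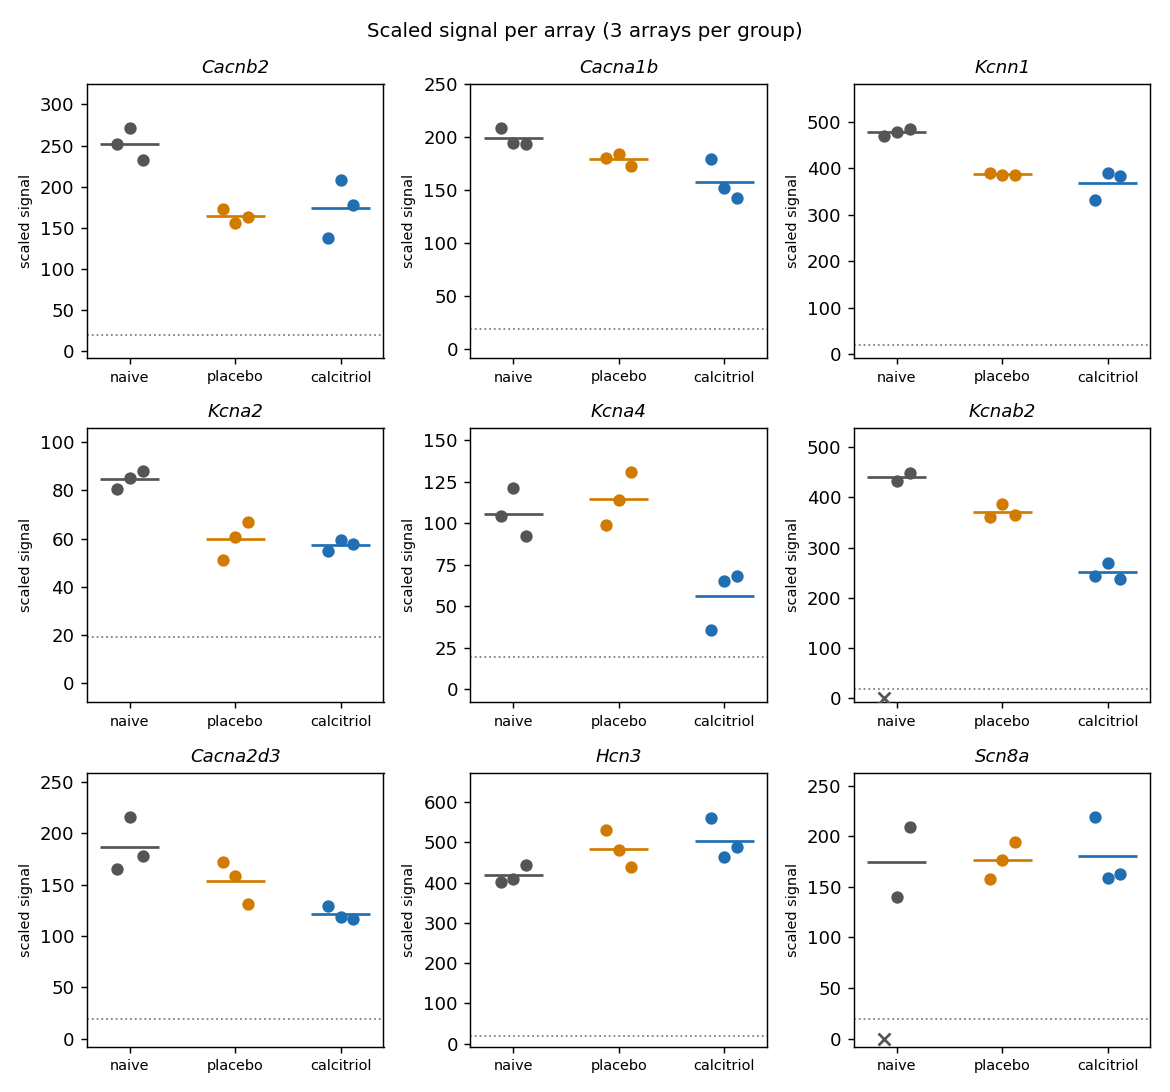
Scaled signal (vertical axis, linear, in signal units) on each array for 9 ion channel genes in naive, placebo and calcitriol groups, with 1 point per array, bars at the group mean without exact zeros, crosses for exact zeros and a dotted line at the floor of 19.3 units. Cacnb2, Cacna1b, Kcnn1 and Kcna2 are lower on all EAE than on all naive arrays, Kcna4 is lower on the calcitriol arrays alone, and Kcnab2, with its exact 0 left aside, is lowest on calcitriol and intermediate on placebo arrays.

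The voltage-gated potassium pore subunits were mostly lower in EAE. Of 16 genes, 13 (81.25%) were lower in placebo than in naive cord (median -0.32 log2), against 52.3% of all tested probe sets. In calcitriol-treated EAE 15 (93.75%) were lower (median -0.27 log2), against 52.0%. The comparisons share the naive arrays, and 0 genes passed the test in both. Without scaling the counts were 11 and 13, where 36.3% and 38.85% of all tested probe sets were lower. The shares of all probe sets also apply to the counts by role below. The median of these 16 genes stayed below 0 in all alternative settings tried, from -0.37 to -0.19 and from -0.37 to -0.16 log2. Kcna1, which encodes Kv1.1, the partner of Kv1.2 in the axon, had 697, 309 and 310 units on naive, 362, 243 and 355 on placebo and 285, 455 and 242 on calcitriol arrays. Naive replicate 2 was the highest array by far, and the other naive arrays lay among the EAE arrays. Kcnh2, which encodes the ERG1 channel that limits firing, had 668, 587 and 637 units on naive, 402, 495 and an exact 0 on placebo and 559, 551 and 599 on calcitriol arrays. Without the 0 it was -0.50 ± 0.15 log2 in placebo (SE, n = 2 against 3, limma adjusted p = 0.213), and with the 0 at the floor -2.01 ± 0.99 (limma adjusted p = 0.596). Calcitriol minus placebo was 0.35 ± 0.15 log2 without the 0 and 1.86 ± 0.99 with it at the floor (limma adjusted p = 1 in each). Kcns1, a silent subunit that modifies Kv2 channels, stood at -0.44 ± 0.22 log2 in placebo against naive (limma adjusted p = 0.612), Kcna6 (Kv1.6) at -0.61 ± 0.32 (limma adjusted p = 0.634) and Kcnd1 (Kv4.1) at -0.42 ± 0.24 (limma adjusted p = 0.672), each with overlapping groups. Kcna7 (Kv1.7) had 79.9 to 120 units on calcitriol and 118 to 140 on placebo arrays, at -0.40 ± 0.24 log2 (limma adjusted p = 1). Kcnc1, the fast-deactivating Kv3.1, ranged from 155 to 387 units on naive and from 213 to 328 on EAE arrays.

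Calcitriol and placebo arrays were set against each other to see what the hormone changed within EAE. All calcitriol arrays lay below all placebo arrays for 5 genes (7.46%, against 5.17% of all tested probe sets), Kcna4, Kcnab2, Cacna2d3, Scn1a and Scn7a, and above them for 3 (4.48%, against 4.82%), Kcnj3, Kcna6 and Kcnh2. Kcna4 encodes Kv1.4, a rapidly inactivating Kv1 channel. Its signals were 104, 121 and 92.1 units on naive, 98.7, 114 and 131 on placebo and 35.3, 65.0 and 68.4 on calcitriol arrays. Naive and placebo arrays overlapped, and the calcitriol arrays lay below both. The difference was -1.08 ± 0.30 log2 (SE) from placebo, or 2.11-fold lower (unadjusted p = 0.00504, limma adjusted p = 1), and -0.96 ± 0.30 log2 from naive (limma adjusted p = 0.185). Without calcitriol replicate 6, the lowest array, the difference from placebo was -0.77 log2 (limma adjusted p = 1).

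Kcnab2 encodes Kv beta 2, the cytoplasmic partner of axonal Kv1 channels. It had an exact 0, 433 and 448 units on naive, 361, 386 and 364 on placebo and 244, 270 and 238 on calcitriol arrays. Leaving out the 0, the calcitriol arrays were lowest and the placebo arrays lay between them and the remaining naive arrays. Calcitriol minus naive was then -0.82 ± 0.15 log2 (SE, n = 3 against 2), 1.76-fold lower, and passed the test (limma adjusted p = 0.013), as 1 of 67 genes (1.49%) where 2.71% of all tested probe sets passed under this setting. In placebo against naive 0 genes passed under it, against 1.40%, and in calcitriol against placebo 0, against 0%. Placebo minus naive was -0.25 ± 0.15 log2 without the 0 and 1.25 ± 0.98 with it at the floor. With the 0 at the floor calcitriol minus naive was 0.69 ± 0.98 log2 (limma adjusted p = 0.847), so the sign depended on that 1 value. Calcitriol minus placebo, where no array had a 0, was -0.57 log2 in both settings, with an SE of 0.98 or of 0.13 without the 0 (limma adjusted p = 1 in each). A second probe set of Kcnab2 had 217, 207 and 214 units on naive, 330, 230 and 221 on placebo and 185, 225 and 207 on calcitriol arrays, with calcitriol and naive overlapping (-0.05 ± 0.18 log2, limma adjusted p = 0.95) and all placebo arrays above naive. Of the other potassium auxiliary subunits, Kcne1 (minK) had 173 to 210 units on calcitriol and 126 to 189 on placebo arrays (0.32 ± 0.20 log2, limma adjusted p = 1), and Kcne1l, its X-linked relative, 159 to 235 and 219 to 248.

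RefSeq promoter windows (GRCm38.p6, the 250 bases before the annotated start) were matched for 53 of the 69 genes. Calcitriol acts through the vitamin D receptor, which binds paired hexamers spaced by 3 bases. Repeats of AGGTCA or of AGTTCA in the same direction with any 3 bases between the copies, searched on both strands, were in 0 of 53 windows, and in 2 and 0 of 27025 windows of all genes. Pairs of unlike hexamers and other forms of the hexamer were not searched. Repeats this rare over all genes would hardly be met in 53 windows, so the 0 tells little. The single hexamer AGGTCA was in 2 of 53 windows (3.77%, against 13.8% of all genes), those of Hcn2 and Kcnh1, and AGTTCA in 5 of 53 (9.43%, against 11.9%), those of Cacna1e, Kcnn4, Kcnj8, Scn9a and Kcnd2. These searches describe letters in a short window and say nothing of receptor binding. The left part of the site of REST, a repressor of neuronal genes, TTCAGCACC, was in 0 of 53 windows and in 0.285% of all, too rare for the 0 to tell much. The windows of Kcna2, lower on all EAE arrays, of Kcna4 and Kcnab2, lower on all calcitriol than on all placebo arrays, and of Kcnj8, whose window holds 2 hexamers, are shown 5′ to 3′ on the gene's strand, with hexamers in capitals.
Kcna2 (chr3:107101317-107101566, plus strand): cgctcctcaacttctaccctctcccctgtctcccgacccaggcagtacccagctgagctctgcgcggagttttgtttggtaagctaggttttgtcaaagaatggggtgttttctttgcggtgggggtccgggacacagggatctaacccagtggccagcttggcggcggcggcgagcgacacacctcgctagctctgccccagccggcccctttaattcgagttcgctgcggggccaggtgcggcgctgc
Kcna4 (chr2:107290339-107290588, plus strand): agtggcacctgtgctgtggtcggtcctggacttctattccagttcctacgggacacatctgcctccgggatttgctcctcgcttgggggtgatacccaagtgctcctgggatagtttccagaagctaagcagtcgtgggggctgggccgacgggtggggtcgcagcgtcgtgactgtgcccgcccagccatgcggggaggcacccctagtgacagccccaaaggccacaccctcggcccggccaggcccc
Kcnab2 (chr4:152477550-152477799, minus strand): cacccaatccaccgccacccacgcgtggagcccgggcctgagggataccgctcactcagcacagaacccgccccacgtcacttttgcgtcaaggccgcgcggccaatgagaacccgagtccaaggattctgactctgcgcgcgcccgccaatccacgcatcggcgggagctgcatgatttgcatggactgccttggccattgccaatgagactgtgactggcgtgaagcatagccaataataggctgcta
Kcnj8 (chr6:142571615-142571864, minus strand): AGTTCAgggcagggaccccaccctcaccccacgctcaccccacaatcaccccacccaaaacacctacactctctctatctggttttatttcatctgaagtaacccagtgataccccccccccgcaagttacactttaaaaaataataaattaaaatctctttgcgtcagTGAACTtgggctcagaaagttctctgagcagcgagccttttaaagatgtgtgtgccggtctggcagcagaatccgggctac
Only the Kcnj8 window among these 4 holds a hexamer, with 1 copy at its start and the other, further downstream, on the opposite strand. The windows also differ in base composition: the ratio of observed to expected CG dinucleotides was above 0.6 in 21 of 53 windows (39.6%, against 34.5% of all genes), in 4 of 4 calcium auxiliary genes, 7 of 12 voltage-gated potassium genes and 0 of 4 two-pore genes.

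Among the calcium channel auxiliary subunits, Cacna2d3 (alpha-2-delta-3, which helps place channels at synapses) had 165, 216 and 178 units on naive, 172, 158 and 131 on placebo and 129, 119 and 117 on calcitriol arrays. The calcitriol arrays were the 3 lowest of the 9. Its difference was -0.60 ± 0.18 log2 from naive (SE, limma adjusted p = 0.174) and -0.33 ± 0.18 from placebo (limma adjusted p = 1). Cacna2d1, the alpha-2-delta subunit bound by gabapentin, was lower on all placebo arrays (104, 78.0 and 96.5 units) than on all naive arrays (114, 122 and 164), whereas the calcitriol arrays spread from 83.1 to 156 (placebo minus naive -0.52 ± 0.28 log2, limma adjusted p = 0.648). All 5 auxiliary genes were lower in placebo than in naive cord, with a median of -0.28 log2, and 4 of 5 in calcitriol-treated EAE, or 4 and 3 of 5 without scaling. The 7 pore genes had medians of -0.09 and 0.04 log2, whose sign turned in some of the alternative settings. Cacna1c, the L-type pore Cav1.2, stood at 581, 447 and 339 units on naive and at 299 to 461 on EAE arrays, and Cacng2, the AMPA receptor partner stargazin, at 375 to 490 on naive and 347 to 461 on EAE arrays.

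Sodium channel pore genes gave dim or scattered signals. Scn8a encodes Nav1.6, the main sodium channel of mature nodes of Ranvier. Its signals were an exact 0, 140 and 209 units on naive, 158, 177 and 194 on placebo and 219, 159 and 163 on calcitriol arrays. Without the 0, the naive arrays spanned most of the EAE range, and the differences were 0.04 ± 0.24 log2 for placebo (SE, n = 3 against 2, limma adjusted p = 0.982) and 0.06 ± 0.24 for calcitriol (limma adjusted p = 0.959). With the 0 at the floor they were 1.09 and 1.11 log2 (limma adjusted p = 0.72 and 0.603). Scn1a (Nav1.1) had 102, 44.8 and 34.7 units on naive, 57.9, 47.6 and 69.5 on placebo and 44.8, 46.5 and 39.5 on calcitriol arrays, the last all below placebo by a narrow margin (-0.41 ± 0.40 log2, SE, limma adjusted p = 1). In a second probe set of Scn1a these groups overlapped, with 129, 86.5 and 69.1 units on placebo and 16.7, 118 and 109 on calcitriol arrays. Scn7a, the sodium sensor Nax of glia, was above the floor on all placebo arrays (60.2, 59.8 and 34.8 units) and on no calcitriol array, but its naive arrays had 17.1, 23.3 and 116 units, and the difference of -1.38 ± 0.61 log2 between the EAE groups did not pass (limma adjusted p = 1). That size is set by the floor, and it ran from -1.85 log2 with a floor of 5% of the common mean to -0.43 with a floor of 20%. Scn3a (Nav1.3), known as a channel of immature and injured neurons, was higher on all calcitriol (58.8, 30.3 and 38.9 units) than on all naive arrays (30.1, 28.8 and 26.3), with 48.3, 25.5 and 53.4 units on placebo arrays. The nearest arrays of these groups were at 30.1 and 30.3 units, and the difference was 0.53 ± 0.38 log2 (limma adjusted p = 0.644).

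Inward rectifiers were split in direction. Of 10 tested inward rectifiers 6 were higher in placebo than in naive cord and 7 in calcitriol-treated EAE, or 5 and 6 without exact zeros, since Kcnj6 then lay below naive. Kcnj8 (Kir6.1), the ATP-sensitive channel of pericytes and smooth muscle, was dim, at 33.6, 36.8 and below 0 on naive, 63.8, an exact 0 and 35.0 on placebo and 86.6, 65.3 and 46.2 units on calcitriol arrays. All calcitriol arrays were above all naive arrays (1.15 ± 0.48 log2, SE, limma adjusted p = 0.373). Placebo minus naive, which the 0 enters, was 0.28 ± 0.48 log2 with the 0 at the floor and 0.72 ± 0.46 without it, and calcitriol minus placebo 0.87 ± 0.48 and 0.44 ± 0.46. Kcnj11 (Kir6.2), its neuronal relative, had 85.3 to 122 units on naive and placebo arrays and an exact 0, 117 and 36.4 on calcitriol arrays. Its difference from naive, -1.28 ± 0.54 log2 (limma adjusted p = 0.388), became -0.69 ± 0.44 without the 0 (limma adjusted p = 0.572), and its difference from placebo, -1.21 ± 0.54, became -0.62 ± 0.44. Kcnj3 (GIRK1), a G protein-gated channel, was higher on calcitriol (106 to 126 units) than on placebo arrays (72.1 to 97.1), with naive arrays at 85.1 to 123 (0.44 ± 0.23 log2 from placebo, limma adjusted p = 1). Kcnj1 (ROMK) had 124 to 200 units on naive and 98.3 to 199 on EAE arrays. Kcnj6 (GIRK2) had 368, 347 and an exact 0 on naive arrays and 240 to 338 units on EAE arrays, and stood at 1.09 ± 0.93 and 1.07 ± 0.93 log2 for placebo and calcitriol minus naive with the 0 at the floor, and at -0.32 ± 0.19 and -0.34 ± 0.19 without it. The 5 two-pore genes were all lower than naive in both EAE groups, with medians of -0.14 and -0.38 log2. Without scaling, 3 of 5 were lower in placebo (median -0.0103 log2) and 4 of 5 in calcitriol-treated EAE (median -0.27), and over all alternatives the latter median ran from -0.54 to -0.08. Kcnk3 (TASK-1), an acid-sensitive background channel, had 62.4, 51.3 and 52.5 units on naive, 46.5, 39.8 and 81.2 on placebo and 22.4, 41.3 and 30.9 on calcitriol arrays, the last all below naive (-0.85 ± 0.36 log2, SE, limma adjusted p = 0.383). Kcnk1 (TWIK-1) ranged from 450 to 705 units on naive and from 395 to 548 on EAE arrays.

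Hcn3, a pacemaker channel gene, had 401, 410 and 444 units on naive, 531, 481 and 438 on placebo and 561, 464 and 488 on calcitriol arrays, so that all calcitriol arrays were above all naive arrays (0.27 ± 0.13 log2, SE, limma adjusted p = 0.49). Hcn2, the other pacemaker gene, depended on the probe set. The probe set that represents it ranged from 2296 to 4124 units on naive and from 3045 to 4075 on EAE arrays, at 0.11 ± 0.26 and 0.06 ± 0.26 log2 for placebo and calcitriol. Its second probe set had 895, 612 and 594 units on naive, 452, 485 and 512 on placebo and 386, 453 and 496 on calcitriol arrays. There each EAE array was lower than each naive array, at -0.51 ± 0.18 log2 for placebo (SE, limma adjusted p = 0.355) and -0.63 ± 0.18 for calcitriol (limma adjusted p = 0.144). Naive replicate 2 was the lowest naive array in one probe set and the highest in the other. Clcn3, a chloride-proton exchanger of endosomes and synaptic vesicles with 4 probe sets, was highest on naive replicate 2 in all 4, and the set that represents it had 535, 399 and 334 units on naive and 281 to 432 on EAE arrays. Clcn4, a related exchanger, was below naive on all placebo arrays (249, 229 and 237 against 354, 260 and 276 units), with calcitriol replicate 7 at 85.5. In a second probe set of Clcn4 placebo and naive arrays overlapped (83.6, 101 and 71.7 against 123, 79.0 and 64.5 units). Clcn5 (calcitriol) and Kcnab3 (placebo) were also below naive on all arrays of that group (limma adjusted p = 0.572 and 0.726). Clcn1, the chloride channel of skeletal muscle, stood at 0.72 ± 0.33 log2 for calcitriol minus naive (limma adjusted p = 0.443), and Clcn2 had 99.4 to 170 units on all arrays.

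Probe sets of the same gene often gave differences of opposite sign, counted without regard to their size or SE. How often this holds for other genes of the array was not counted. Of 18 genes with several probe sets, 16 had more than 1 tested, and the sign of the difference was opposite within the gene for 10 of them in placebo against naive, 7 in calcitriol against placebo and 8 in calcitriol against naive. Kcnj9 (GIRK3) was 1 such case: the set that represents it had 78.8, 25.7 and 84.5 units on naive and 57.0 to 98.3 on EAE arrays, and its other set 32.8, 815 and 1144 on naive, 540 to 712 on placebo and an exact 0, 323 and 355 on calcitriol arrays.

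**Figure D4:**
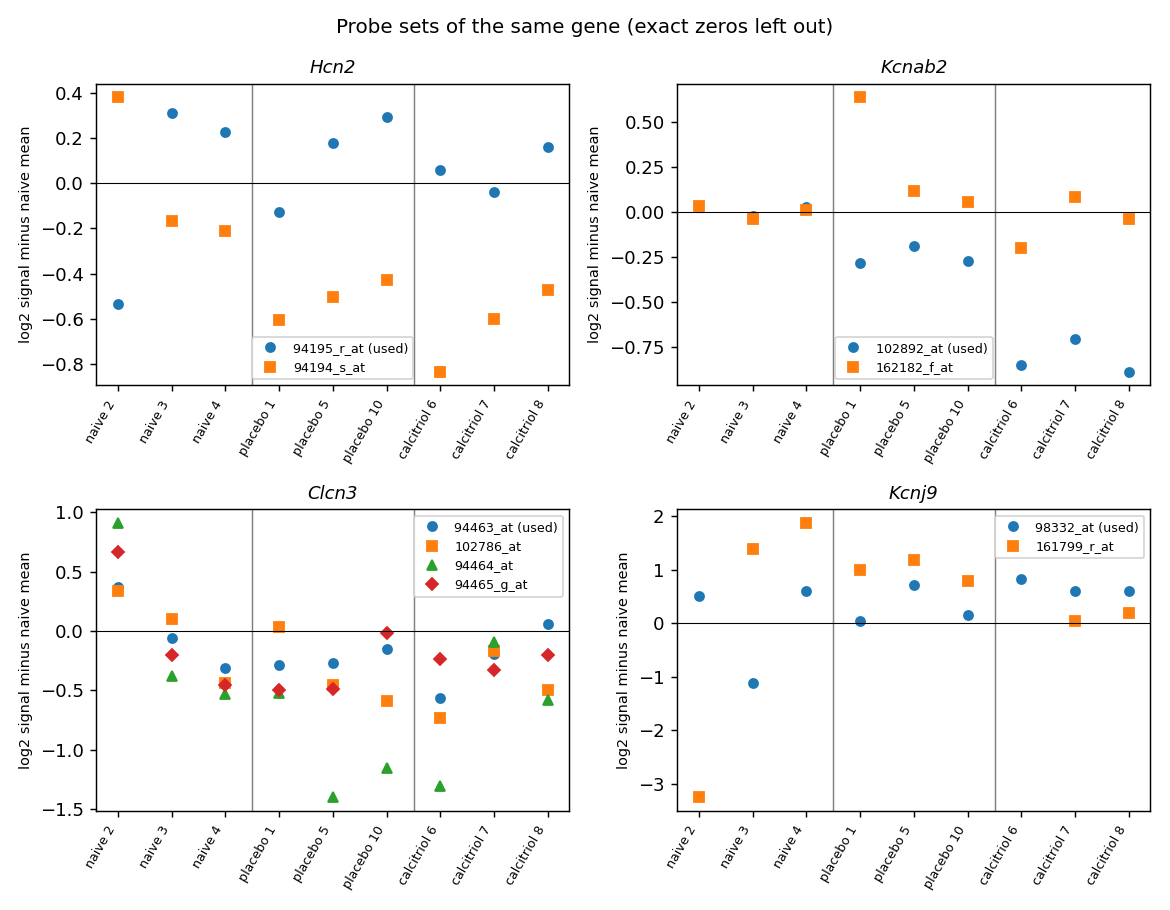
Log2 signal minus the mean of the naive arrays (vertical axis) on each of the 9 arrays (horizontal axis) for all probe sets of Hcn2, Kcnab2, Clcn3 and Kcnj9, with 1 symbol per probe set and exact zeros left out. The 4 Clcn3 probe sets are all highest on naive replicate 2, while the probe sets of Hcn2, Kcnab2 and Kcnj9 place the same arrays in different order.

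Several of the genes are neighbours in the mouse genome. In RefSeq's GRCm38.p6 table, Kcna1, Kcna5 and Kcna6 lie side by side with no protein-coding gene between them, as do Kcna2 and Kcna3, the sodium channel genes Scn1a, Scn9a and Scn7a, the inward rectifiers Kcnj1 and Kcnj5, and Kcnj6 and Kcnj15. Among these neighbours, Kcna2 was lower on all EAE arrays while Kcna3 overlapped, and in calcitriol against placebo Kcna6 was higher on all arrays while Kcna1 and Kcna5 overlapped. Scn1a and Scn7a were both lower on all calcitriol than on all placebo arrays, and Scn9a, which lies between them, was not tested. The second probe set of Scn1a overlapped there, the size for Scn7a is set by the floor, and neither gene passed the test.

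Proteins that assemble or modulate these channels, and ion channels of other families, were taken from lists. Of 22 listed genes of node and juxtaparanode assembly 12 were measured, of 17 channel-associated proteins 12, and of 70 other ion channels 31, and 0 passed the limma test in any of the 3 comparisons. At an unadjusted p under 0.05 there were 1, 0 and 2 genes of the lists in placebo against naive, 0, 2 and 0 in calcitriol against placebo, and 0, 2 and 2 in calcitriol against naive. All tested probe sets gave 9.33%, 2.58% and 11.9% in these comparisons, and the list genes below are named by rank and not as changed. Fgf12, an intracellular partner of sodium channel pores, came nearest, at -1.28 ± 0.30 log2 for calcitriol minus naive (SE, limma adjusted p = 0.0749) and -0.99 ± 0.30 for calcitriol minus placebo (limma adjusted p = 1), with groups that did not overlap. Dpp6, an auxiliary protein of Kv4 channels, stood at -0.32 and -0.36 log2 in the same comparisons (limma adjusted p = 0.385 and 1). Clic4, an intracellular chloride channel protein, was above all naive arrays in both EAE groups, at 0.37 ± 0.14 log2 for placebo (limma adjusted p = 0.414) and 0.52 ± 0.14 for calcitriol (limma adjusted p = 0.133). Trpc1, a cation channel, stood at -1.01 ± 0.36 log2 for calcitriol minus naive (limma adjusted p = 0.27), Trpc5 at -0.67 ± 0.27 for placebo minus naive (limma adjusted p = 0.465), and Dlg4, the scaffold PSD-95, at 1.03 ± 0.40 for placebo minus naive (limma adjusted p = 0.422). The nodal scaffold ankyrin G (Ank3) stood at -0.37 and -0.48 log2 for placebo and calcitriol minus naive (limma adjusted p = 0.713 and 0.466), with overlapping groups. Fgf14, Abcc8, Ank1, Dlg3, Cntnap1 and Clca1 had limma adjusted p-values of 0.471 or more in the comparisons where they ranked first or second in their list.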

How the data were processed

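Total RNA of 9 spinal cord samples was hybridised to 1 array each. Each deposited table lists linear intensity for 12488 probe sets, some of it negative or exactly 0. The software and scaling the authors used are not stated in the labels or headers read here. Control probe sets (66) were left out. Each array was scaled to a common mean of 192.8 (without the lowest and highest 2%), signals were floored at 10% of it (19.3) and taken to log2, and 12177 probe sets that exceeded the floor on 3 or more arrays were tested in 1 fit with limma 3.58.1 (R 4.3.3), with an intensity trend and 6 residual degrees of freedom. P-values were adjusted within each comparison by Benjamini-Hochberg (threshold 0.05). The fit was tested on simulated data. Figures used Python 3.11.15 and matplotlib 3.10.9.

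Genes were named through GEO's platform annotation. A gene's probe set was one with a plain suffix where there was one, then the one with the highest mean. The genes and lists were chosen with earlier results of these data known. Named genes were, per comparison, those past the threshold and the 10 with the smallest unadjusted p, plus a list of well-studied channels where measured and the gene with the highest naive mean in each role, and of each partner list the 2 genes with the smallest p. Genes named because groups did not overlap, the comparison of all 6 EAE arrays with naive, and the counts by role without scaling or exact zeros, were chosen after the values were seen. Alternatives were no scaling, quantile normalization, other floors and filters, exact zeros as missing, array weights, no trend, fits of 2 groups, another probe set per gene and leaving out each array.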

Additional observations from a re-analysis of the deposited data

How the results depend on the processing

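No paired analysis was possible because replicate numbers are not shared between groups. The count of ion channel genes past the limma threshold stayed at 0 in calcitriol against placebo under all alternatives, and in placebo against naive under all but array weights, which called 1 (Cacnb2, -0.70 log2, adjusted p = 0.0197). In calcitriol against naive it was 5 with array weights (Cacna2d3, Cacnb2, Kcna4 and Kcnn1 lower, Kcnj9 higher), 1 with exact zeros missing (Kcnab2), and 0 to 1 over single arrays left out: 1 without naive replicate 2 (Kcnab2, adjusted p = 0.00882) and 1 without calcitriol replicate 7 (Kcnj11, -1.99 log2, adjusted p = 0.0304). The weights put 4.38 on naive replicate 3, 0.26 on naive replicate 2 and 0.41 on naive replicate 4.

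The median difference for placebo against naive was -0.0103 log2 as deposited and -0.177 to -0.0388 over single arrays left out, lowest in size without naive replicate 4. For calcitriol against naive it was -0.0911 as deposited and -0.251 to -0.141 over single arrays left out. For calcitriol against placebo it was 0 with no filter, 0.0076 with array weights and -0.0527 to 0.0283 over single arrays left out. Signs turned in these cases. With exact zeros missing, Kcnab2 stood at -0.25 (placebo) and -0.82 log2 (calcitriol minus naive) and Kcnj6 at -0.32 and -0.34, with the same values without the array that held the 0 (naive replicate 2 and naive replicate 4). Over single arrays left out, Kcnab2 reached 2.02 and 1.45 and Kcnj6 1.81 and 1.79 at the upper end. Kcnab2 was -0.55 for calcitriol minus naive with array weights. Kcnj8, placebo minus naive, was -0.0106 with array weights, -0.00381 without naive replicate 4, and -0.15 (without placebo replicate 1) to 0.716 (without placebo replicate 5) over single arrays left out. Clcn5, calcitriol minus naive, was 0.0823 in its brighter probe set. Over all probe sets, calls ran from 20 to 639 (114 as reported) in placebo against naive, 0 to 1 (0) in calcitriol against placebo and 75 to 1014 (244) in calcitriol against naive. Both upper ends came with array weights, and the lower ends without placebo replicate 5 and without calcitriol replicate 8. Apart from what follows from leaving out exact zeros, causes were not tested. Probe sets within a few units of the floor give only rough differences.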
